A study of Homo sapiens with 6 samples.

Results

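The genes of glycolysis and of the hypoxia response were followed in INA6 cells (also written INA-6), a human multiple myeloma line whose growth depends on interleukin-6 (IL-6). The set holds 42 genes, chosen by name: glucose and lactate transporters, the enzymes of glycolysis with their regulators, the hypoxia-inducible factors (HIF) with their oxygen sensors, and further genes that low oxygen is known to induce. All 42 had a probe under that symbol, of 17411 genes with a symbol on the array. Restimulated cells had been kept without IL-6 for 13 h and then received it again for 1 h. Withdrawn cells had been kept without IL-6 for 13 h. There were 3 samples per group, each on its own single-color array (nONCOchip), all from this 1 cell line. By their labels these are biological replicates, and nothing states that each came from its own culture. A p-value here therefore reflects the spread among these arrays, which may in part be technical.

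Glycolysis splits glucose into pyruvate, and lactate is made from pyruvate where respiration is limited or, in many tumor cells, also in the presence of oxygen. Transporters of the SLC2A (GLUT) family bring in the glucose, and monocarboxylate transporters of the SLC16A family carry lactate out. HIF factors raise the transcription of most of these genes when oxygen falls, because the prolyl hydroxylases of the EGLN family no longer mark the HIF alpha subunits for destruction by the VHL ubiquitin ligase. HIF activity is therefore set largely at the level of protein, which an RNA array does not measure. IL-6 is known to act largely through the transcription factor STAT3.

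All values are log2 intensities as the authors normalized and deposited them. They end at a ceiling of 16, and the median over all spots lay between 6.84 and 6.85 on each array. A gene was represented by its brightest probe and was tested if that probe lay above the array median on at least 3 of the 6 arrays. A level of 1 probe cannot be set against the level of another probe, so only differences between the groups are compared. Array data give no read depth, and the number of arrays limits the precision. The names rest on an inferred match between table rows and probe numbers. Under it, the first 2 probes of a gene correlated in mean level with r = 0.431 over 7157 genes (equal numbers gave 0.0190), a correlation across genes, which are not independent. Of 10 plasma cell markers 9 were tested, and 1 of them, PRDM1, was called. PRDM1, POU2AF1, XBP1, SLAMF7 and IRF4, all known to be active in plasma cells, were 5 of the 9 that were higher in restimulated cells without overlap and with an unadjusted p under 0.05. Over all genes tested, 5.8% were higher without overlap and 3.61% were higher with such a p in limma (6.35% and 4.38% lower). The median of the 9 was 0.41, while SDC1 (CD138) averaged 11.23 in restimulated and 11.39 in withdrawn cells. Of markers of other cells, 2 of 8 myeloid, 2 of 8 fibroblast and epithelial, 5 of 6 erythroid and 6 of 8 T and NK cell genes passed the filter. None of them passed the test. The 6 T and NK cell genes had a median difference of -0.31, and CD2 and CD8A were 2 of them with an unadjusted p under 0.05 in limma, both with lower means in restimulated cells (differences of -0.45 and -0.57). CD2, GNLY and the erythroid gene ALAS2 were lower in restimulated cells without overlap, and the epithelial gene KRT18 was higher without overlap. For GNLY and ALAS2 withdrawn replicate 3 stood apart, at 8.44 and 8.62. Their other withdrawn values lay just above the highest restimulated value. Some markers read well above the median, such as CD14 (9.33 in restimulated and 9.88 in withdrawn cells) and CD3E (9.22 in restimulated and 9.40 in withdrawn cells). The epithelial marker KRT8 read far above it (14.56 in restimulated and 14.72 in withdrawn cells), and KRT18 averaged 8.81 and 8.70. CD3D, LYZ, MPO, COL1A1 and EPCAM lay below the filter. Whether RNA of other cells, or a shift among these markers, has a part in the values was not tested.

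Within the set the return of IL-6 was followed by a rise of the glucose transporter SLC2A3 and by no other change past the threshold. SLC2A3 (GLUT3), a transporter with a high affinity for glucose that is best known from neurons, was 2.21-fold higher in restimulated cells. No other gene of the set passed, neither upward nor downward. Of 42 genes 40 were tested, and 1 of them, ALDOA, sat at the ceiling on all arrays, which left 39 with a measurable difference. Over all 12703 genes tested 0.244% were called at an adjusted p of 0.05 (0.236% higher and 0.00787% lower in restimulated cells). The set had been put together with earlier results of these data known, SLC2A3 included, so its count says nothing about the set against other genes.

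**Figure D1:**
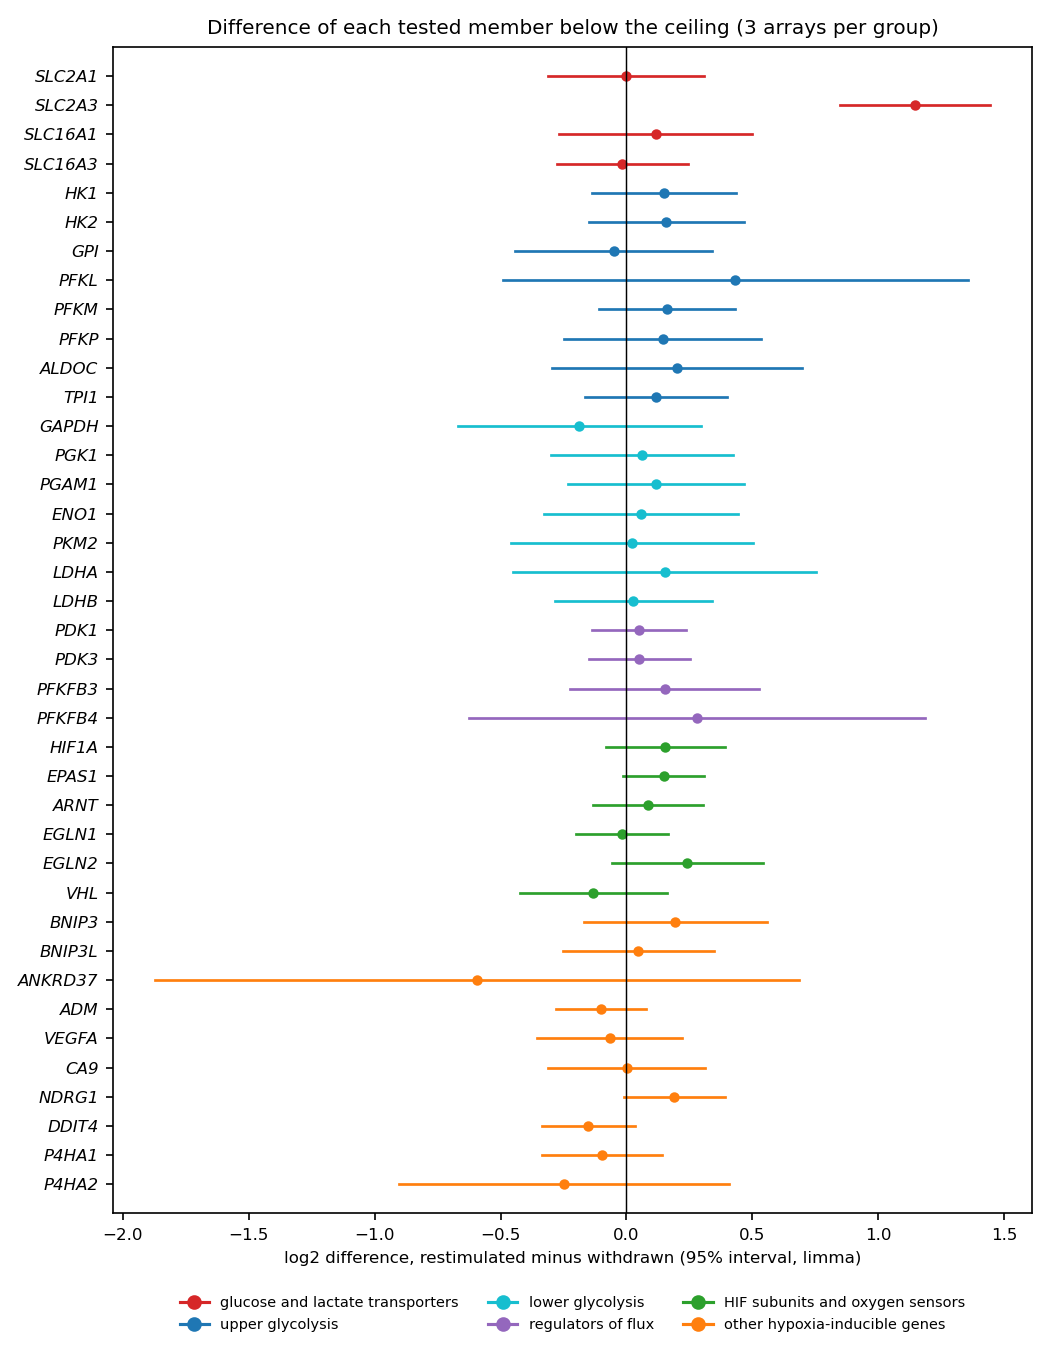
Log2 difference between restimulated and withdrawn arrays (x axis, restimulated minus withdrawn) for the 39 tested genes below the ceiling (rows, colored by role), with the 95% interval from limma (lines). The interval of SLC2A3 runs from 0.85 to 1.45, and the intervals of the other 38 genes hold 0.

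SLC2A3 was measured by a pair of probes, and both separated the groups. The first probe read 8.51, 8.53 and 8.63 on the restimulated arrays, against 7.24, 7.66 and 7.33 on the withdrawn arrays. The restimulated values were close together, and every withdrawn value lay below all of them. The log2 difference was 1.15 ± 0.12 (SE, n = 3 per group, limma adjusted p = 0.0423), with a 95% interval from 1.80-fold to 2.72-fold. The second probe read 8.36, 8.42 and 8.31 in restimulated cells and 7.45, 7.55 and 7.58 in withdrawn cells, again without overlap. It differed by 0.84 ± 0.06 (SE). In the fit over all 122102 tested probes, of which 1.83% were called (1.74% higher and 0.0983% lower), the adjusted p was 0.0165 for the first and 0.00822 for the second probe. By the size of its rise SLC2A3 stood at place 24 and by its p at place 26 among the genes tested. The call was close to the threshold. It was kept without withdrawn replicate 2 (1.27, adjusted p = 0.0292) and lost without any other array, with an adjusted p of 0.228, 0.220 and 0.168 without restimulated replicates 1, 2 and 3 and of 0.200 and 0.192 without withdrawn replicates 1 and 3. The difference stayed between 1.06 and 1.27 in these 6 fits.

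SLC2A3 has relatives of nearly the same sequence that share its array. SLC2A14, which arose from a duplication of SLC2A3, read 8.67, 8.52 and 8.55 in restimulated and 8.35, 8.39 and 8.52 in withdrawn cells, a difference of 0.16 ± 0.08 (SE, limma adjusted p = 0.696). The groups did not overlap, but the highest withdrawn and the lowest restimulated value nearly met. The probe of the pseudogene SLC2A3P1 read 8.24, 7.60 and 7.63 in restimulated and 7.53, 7.38 and 7.65 in withdrawn cells, with overlap. How far SLC2A3 probes also bind RNA of these relatives was not tested.

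The other transporters of the set did not pass. SLC2A1 (GLUT1), the glucose transporter of most proliferating cells, read 8.02, 8.37 and 8.36 in restimulated and 8.13, 8.39 and 8.24 in withdrawn cells. Its difference of -0.001 had a 95% interval from -0.31 to 0.31, that is from 0.807-fold to 1.24-fold. SLC16A1, a lactate and pyruvate carrier, differed by 0.12 (interval -0.27 to 0.50), and SLC16A3, the lactate exporter typical of glycolytic cells, by -0.02 (interval -0.28 to 0.24). A response of SLC2A1 as large as that of SLC2A3 lay outside the interval, while a small change could not be told from none.

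Of 16 further genes of sugar and lactate transport, listed from general knowledge, 11 were tested and none passed. Nearest to the threshold was SLC2A5, a carrier specific for fructose, which read 11.90, 12.26 and 11.996 in restimulated and 11.31, 11.47 and 11.13 in withdrawn cells. The groups did not overlap, yet at 0.75 ± 0.13 (SE) it was not called over all genes (limma adjusted p = 0.198). SLC16A7, another monocarboxylate carrier, also showed no overlap, with 8.24, 8.13 and 8.08 in restimulated and 7.84, 7.97 and 7.89 in withdrawn cells (difference 0.25, adjusted p = 0.488). The median of these 11 genes was -0.11, beside a median of 0.01 over all genes tested and below the ceiling.

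**Figure D2:**
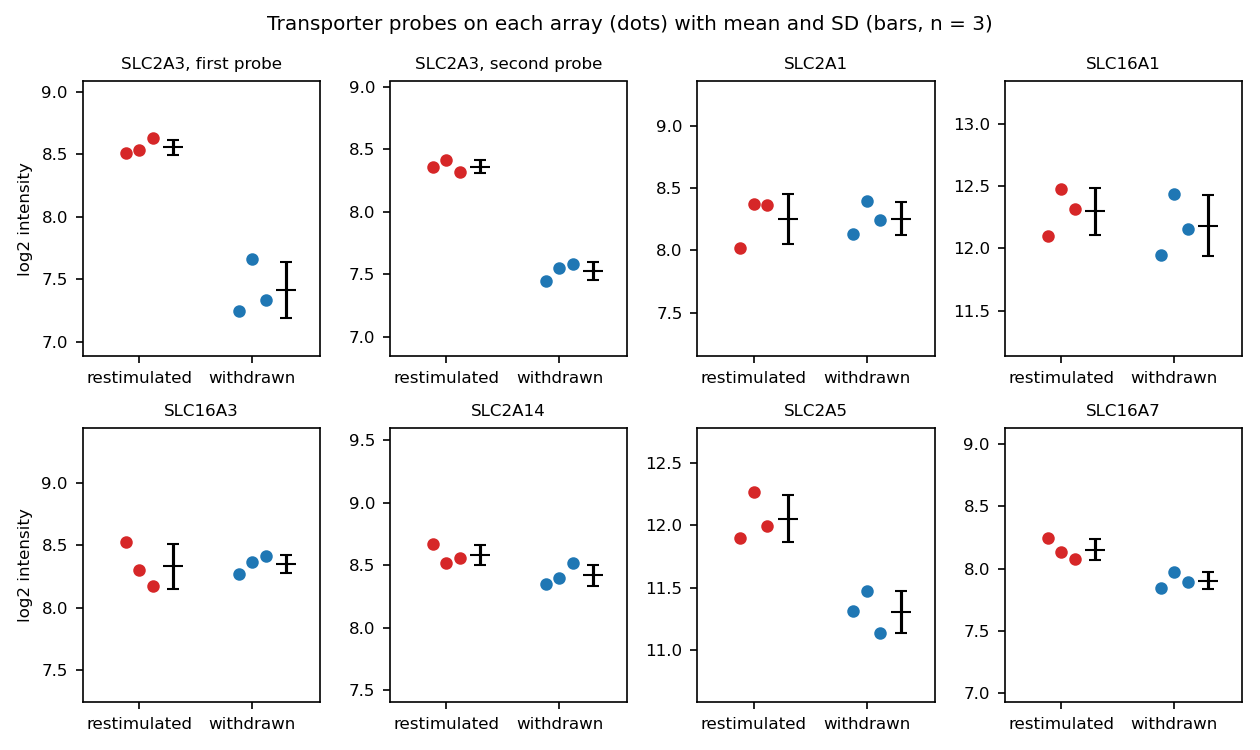
Log2 intensity (y axis, each panel spanning the same range) of probes for sugar and lactate transporters on the 3 restimulated and 3 withdrawn arrays (dots), with the mean and SD of each group (bars). Both SLC2A3 probes and SLC2A5 separate the groups widely, SLC2A14 and SLC16A7 narrowly, while the groups of SLC2A1, SLC16A1 and SLC16A3 overlap.

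Upper glycolysis, from the trapping of glucose by hexokinase to the triose phosphates, showed no called gene among 9. Differences of the 8 genes below the ceiling ran from -0.05 for GPI to 0.43 for PFKL, with a median of 0.15. HK2, the inducible hexokinase of tumor cells, read 9.80, 10.23 and 10.16 in restimulated and 9.84, 9.98 and 9.90 in withdrawn cells (difference 0.16 ± 0.13 SE, limma adjusted p = 0.818). HK1, the hexokinase of most tissues, read 7.65, 7.98 and 7.92 in restimulated and 7.68, 7.84 and 7.59 in withdrawn cells (difference 0.15). Both hexokinases overlapped between the groups at these probes. The second, dimmer HK2 probe read 8.52, 8.50 and 8.49 in restimulated and 8.42, 8.38 and 8.44 in withdrawn cells, without overlap. It differed by 0.09 and did not pass in the limma fit over all probes (adjusted p = 0.546). PFKM, the muscle-type subunit of phosphofructokinase, which commits sugar to glycolysis, read 10.27, 10.45 and 10.21 in restimulated and 9.97, 10.22 and 10.26 in withdrawn cells, with overlap. It differed by 0.16, and PFKP, the platelet-type subunit, by 0.14. PFKL, the liver-type subunit, had the widest spread of the enzymes. It read 15.33, 15.37 and 15.001 in restimulated and 14.82, 14.03 and 15.55 in withdrawn cells, with an interval from -0.49 to 1.36. Its other probe differed by 0.01. ALDOC, an aldolase of brain, and TPI1, which interconverts the triose phosphates, differed by 0.20 and 0.12. ALDOA, the main aldolase, sat at the ceiling on all 6 arrays, so no difference could be measured there, and its second probe differed by 0.08 (interval -0.27 to 0.44).

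Lower glycolysis, which yields ATP and pyruvate, likewise had no called gene among the 7 tested. Differences ran from -0.19 for GAPDH to 0.15 for LDHA, with a median of 0.06. GAPDH, often used as a reference gene, read 14.51, 14.42 and 14.76 in restimulated and 14.62, 15.16 and 14.47 in withdrawn cells. Withdrawn replicate 2 was the highest of the 6 arrays for it, and without that array the difference was 0.02 instead of -0.19. LDHA, the lactate dehydrogenase subunit that favors lactate, read 15.24, 15.56 and 15.56 in restimulated and 14.99, 15.84 and 15.07 in withdrawn cells. Again withdrawn replicate 2 was the highest, and the interval from -0.45 to 0.75 was wide. The 2 dimmer LDHA probes differed by 0.22 and 0.25, neither past the threshold. PGK1, the first ATP-yielding enzyme, differed by 0.06, PGAM1 by 0.12, ENO1 by 0.06, the pyruvate kinase PKM2 (now PKM) by 0.02 and LDHB by 0.03. ENO2, the neuronal enolase, lay below the array median everywhere, at 6.52, 6.63 and 6.75 in restimulated and 6.76, 6.58 and 6.48 in withdrawn cells, and was not tested.

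The start sites of SLC2A1, PGK1 and LDHA are shown because these genes are textbook targets of HIF that did not pass here. SLC2A3, which did pass, had no window to set beside them. HIF binds the core of the hypoxia response element, written ACGTG or GCGTG, and STAT factors bind TTCNNNGAA. The windows below hold 250 bases before and 50 after the start in RefSeq (GRCh38.p14), read along the gene, and capitals mark every match of ACGTG or GCGTG on either strand.
SLC2A1, chr1:42958819-42959118, minus strand: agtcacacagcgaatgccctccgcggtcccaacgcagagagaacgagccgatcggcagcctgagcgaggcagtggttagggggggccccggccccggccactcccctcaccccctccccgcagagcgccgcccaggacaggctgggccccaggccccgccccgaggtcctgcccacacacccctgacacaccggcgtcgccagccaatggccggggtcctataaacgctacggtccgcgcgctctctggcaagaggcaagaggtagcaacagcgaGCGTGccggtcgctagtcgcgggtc
PGK1, chrX:78103998-78104297, plus strand: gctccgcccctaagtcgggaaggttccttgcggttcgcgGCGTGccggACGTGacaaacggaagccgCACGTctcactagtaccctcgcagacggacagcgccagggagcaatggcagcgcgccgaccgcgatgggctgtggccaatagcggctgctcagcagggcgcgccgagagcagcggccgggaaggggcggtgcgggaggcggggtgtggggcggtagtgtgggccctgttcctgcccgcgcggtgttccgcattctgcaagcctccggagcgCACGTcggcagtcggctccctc
LDHA, chr11:18394313-18394612, plus strand: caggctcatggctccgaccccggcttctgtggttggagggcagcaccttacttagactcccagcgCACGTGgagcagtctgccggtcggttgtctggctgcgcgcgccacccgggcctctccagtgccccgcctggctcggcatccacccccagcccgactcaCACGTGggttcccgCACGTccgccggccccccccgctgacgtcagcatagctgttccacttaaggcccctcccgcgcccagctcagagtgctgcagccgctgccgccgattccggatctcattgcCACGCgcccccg
LDHA, other start site, chr11:18396101-18396400, plus strand: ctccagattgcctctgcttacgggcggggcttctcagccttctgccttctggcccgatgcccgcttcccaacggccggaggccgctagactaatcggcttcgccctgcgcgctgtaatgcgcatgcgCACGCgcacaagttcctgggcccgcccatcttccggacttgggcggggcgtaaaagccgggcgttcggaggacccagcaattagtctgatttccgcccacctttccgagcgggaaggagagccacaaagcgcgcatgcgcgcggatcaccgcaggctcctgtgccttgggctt
LDHA has 2 start sites in the table, with 5 matches of ACGTG and 1 of GCGTG in the first window and 0 and 1 in the other. Each CACGTG holds a match on both strands and was counted on both, so these are not 5 separate sites. TTCNNNGAA was not found in these 4 windows, which says only that these letters are not in them. Of the 42 genes 36 matched the promoter table, with 64 start sites, and BNIP3L, NDRG1, SLC16A1, SLC2A3, VEGFA and VHL did not. ACGTG or GCGTG on either strand occurred in 65.6% of the 64 windows, beside 48.4% of all 35116 windows of this length. Windows of 1 gene can overlap, as some of HK1 and PFKM do, so they are not separate promoters. Counted by gene, a match occurred at a start site of 32 of the 36 genes, beside 52.4% of all genes with a window. A gene with more start sites has more windows to match, and the set was chosen in part for known hypoxia genes. TTCNNNGAA, which reads the same on both strands, occurred in 2 of the 64 windows (1 each of HK1 and PDK1) and in 7.66% of all windows. A match of letters is a description and does not show binding.

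The regulators of glycolytic flux did not pass either. PFKFB3 makes the activator of phosphofructokinase and is inducible by growth signals and by hypoxia. It had 4 tested probes, which differed by 0.15, 0.08, 0.21 and 0.24. All 4 pointed upward and none passed in the fit over all probes (adjusted p from 0.366 to 0.761 for the dimmer 3). PFKFB4, a related enzyme, read 9.19, 8.01 and 7.75 in restimulated and 8.07, 8.03 and 8.01 in withdrawn cells. Restimulated replicate 1 alone lay high, and without it the difference was -0.16 instead of 0.28. PDK1 and PDK3, kinases that shut pyruvate out of the mitochondria, both differed by 0.05 at the brightest probe, with intervals inside 0.3 on either side. The second PDK1 probe differed by -0.12 (interval -0.37 to 0.14). Of 28 further isozymes and regulators of glycolysis and pyruvate oxidation 19 were tested, none passed, and their differences ran from -0.24 for LDHC to 0.14. PDP1, the phosphatase that opposes the PDK kinases, read 8.64, 8.77 and 8.76 in restimulated and 8.94, 8.90 and 8.78 in withdrawn cells, a difference of -0.15 (adjusted p = 0.707).

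Of the HIF subunits and oxygen sensors 6 of 7 were tested and none passed. HIF1A, the best known alpha subunit, read 7.05, 7.12 and 6.97 in restimulated and 6.76, 6.86 and 7.06 in withdrawn cells, just around the array median. Its only probe differed by 0.15 ± 0.10 (SE, limma adjusted p = 0.762), and the groups overlapped through withdrawn replicate 3. EPAS1, the second HIF alpha subunit, read 8.10, 8.05 and 8.04 in restimulated and 7.90, 7.99 and 7.85 in withdrawn cells. These groups did not overlap, but the gap was small and the difference of 0.15 ± 0.07 (SE) had an interval from -0.01 to 0.31 (adjusted p = 0.653). ARNT, the beta subunit, differed by 0.09 and its second probe by -0.16. Of the hydroxylases, EGLN1 differed by -0.02 at its brightest probe, which was designed to another transcript record. At the dimmer probes for its RefSeq transcript it differed by 0.22 and 0.02, neither past the threshold. EGLN2 differed by 0.24 ± 0.12 (SE), with 8.81, 9.03 and 9.11 in restimulated and 8.58, 8.93 and 8.73 in withdrawn cells, which overlap. EGLN3, itself strongly inducible by hypoxia, lay below the array median on all 6 arrays, at 6.60, 6.55 and 6.36 in restimulated and 6.404, 6.44 and 6.63 in withdrawn cells, and was not tested. VHL differed by -0.13 at its brightest probe, which was designed to another transcript record, and by 0.07 at the probe for its RefSeq transcript. Of 17 further HIF pathway factors 15 were tested and none passed. CREBBP, a coactivator of HIF and of STAT3, was nearest, with 9.18, 8.91 and 9.05 in restimulated and 9.28, 9.33 and 9.31 in withdrawn cells (difference -0.27, adjusted p = 0.504).

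Genes that hypoxia is known to induce showed no common direction. Of 10 tested, 4 differed upward, the median was -0.08, and none passed. NDRG1, a stress-responsive gene, read 9.36, 9.48 and 9.61 in restimulated and 9.25, 9.35 and 9.28 in withdrawn cells. The lowest restimulated value lay just above the highest withdrawn value, and at 0.19 ± 0.08 (SE) the gene was not called (limma adjusted p = 0.646). Its second probe differed by 0.15, also without overlap. DDIT4 (REDD1), which restrains mTORC1, read 8.16, 8.25 and 8.06 in restimulated and 8.25, 8.37 and 8.31 in withdrawn cells, a difference of -0.15 ± 0.08 (SE) with a slight overlap. The angiogenic factor VEGFA had 4 tested probes, which differed by -0.07, 0.11, 0.19 and -0.01. The peptide hormone ADM read 9.19, 9.26 and 9.12 in restimulated and 9.27, 9.38 and 9.23 in withdrawn cells, a difference of -0.10 with overlap. BNIP3, a mitophagy receptor, read 8.88, 9.08 and 9.22 in restimulated and 8.71, 8.75 and 9.14 in withdrawn cells, a difference of 0.19 with overlap. Its relative BNIP3L differed by 0.05 and at its second probe by 0.26, neither past the threshold. The collagen hydroxylase P4HA1 differed by -0.10. CA9, a carbonic anhydrase widely used as a hypoxia marker, lay near the array median, with 7.21, 6.94 and 6.99 in restimulated and 7.10, 6.83 and 7.21 in withdrawn cells.

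ANKRD37 and P4HA2 stood out by 1 array, withdrawn replicate 3. ANKRD37, a HIF target, read 6.69, 6.69 and 7.05 in restimulated and 6.71, 6.86 and 8.64 in withdrawn cells. P4HA2, a collagen prolyl hydroxylase, read 8.75, 8.87 and 8.99 in restimulated and 8.83, 8.79 and 9.74 in withdrawn cells. Their differences of -0.59 and -0.25 became 0.03 and 0.06 without that array. Withdrawn replicate 3 was the highest of its group for 5 of the 10 hypoxia-inducible genes of the set, ANKRD37 and P4HA2 included, beside 27.9% over all genes tested and below the ceiling. Among 19 tested hypoxia-inducible genes outside the set it was highest for 7 and lowest for 8, and withdrawn replicate 2 was highest for 8. Among those 19, of 30 listed, BHLHE40 was called, a transcriptional repressor of the helix-loop-helix family. It read 9.60, 9.47 and 9.43 in restimulated and 7.55, 7.47 and 7.49 in withdrawn cells, far apart, with a difference of 2.00 ± 0.07 (SE, limma adjusted p = 0.000634). IGFBP3, which binds insulin-like growth factors, had 12.13, 12.46 and 12.16 in restimulated and 12.54, 12.77 and 12.82 in withdrawn cells, a difference of -0.46 that did not pass (adjusted p = 0.450).

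**Figure D3:**
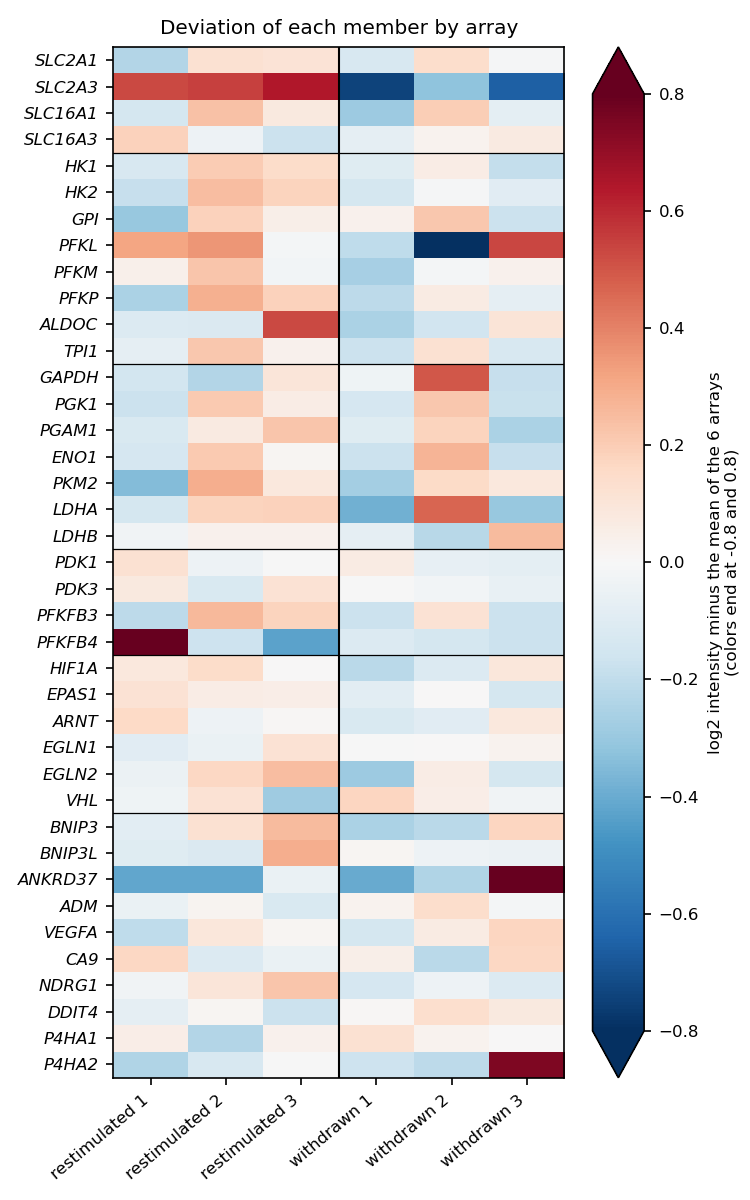
Log2 intensity minus the mean over the 6 arrays (color, red above and blue below the mean) for the 39 tested genes below the ceiling (rows, ordered by role) on the restimulated and the withdrawn arrays (columns). The row of SLC2A3 is red on all restimulated and blue on all withdrawn arrays, and single arrays stand out for PFKL, PFKFB4, ANKRD37 and P4HA2.

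Arrays of the same group ranked in like order for many glycolytic enzymes. Of the 15 enzymes tested and below the ceiling, 10 were highest in restimulated replicate 2 among the restimulated arrays and none in restimulated replicate 1, which was lowest for 11. Among the withdrawn arrays, replicate 2 was highest for 11 and replicate 1 for none. Over all genes tested and below the ceiling, restimulated replicates 2 and 3 were each highest in their group for 37.3%, and withdrawn replicate 2 was highest for 48.0%. Over the 3229 genes with a mean of at least 10, replicate 2 was highest for 43.4% among the restimulated and 56.9% among the withdrawn arrays. The difference between these shares and those of the enzymes was not tested.

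Of the 39 genes with a measurable difference 27 were higher in restimulated cells, where 52.1% of all genes tested were, and the median was 0.06, beside 0.01 over all genes. At the brightest probe of each gene the groups did not overlap in 3 (SLC2A3, NDRG1 and EPAS1), all of them higher. Over all genes tested this held for 12.2% (5.8% higher and 6.35% lower). EPAS1 overlapped at its second probe, which differed by 0.07. A dimmer probe each of SLC2A3, HK2, NDRG1, PFKFB3 and VEGFA was higher without overlap, while the other dimmer tested probes overlapped. At the brightest probe an unadjusted p under 0.05 was reached by SLC2A3 and by no other gene of the set, beside 7.99% of all genes (3.61% higher and 4.38% lower). In the limma fit over all probes, the second NDRG1 probe (unadjusted p = 0.0483) and the third PFKFB3 probe (unadjusted p = 0.0478) also reached it. For dimmer probes no share over all tested probes was computed, neither without overlap nor under this p. The shares above are for genes at their brightest probe, so these dimmer probes are given as description only. For 36 of the 39 the difference was under 0.3 in size, a fold of 1.23, as for 93.6% of all genes tested. For 26 of the 38 genes other than SLC2A3 the 95% interval lay within 0.5 on either side of 0, a fold of 1.41, and for 36 its upper end lay below the lower end for SLC2A3. The exceptions were PFKL and PFKFB4, with upper ends of 1.36 and 1.19. These intervals are not adjusted for the number of genes, and differences between genes were not tested.

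**Figure D4:**
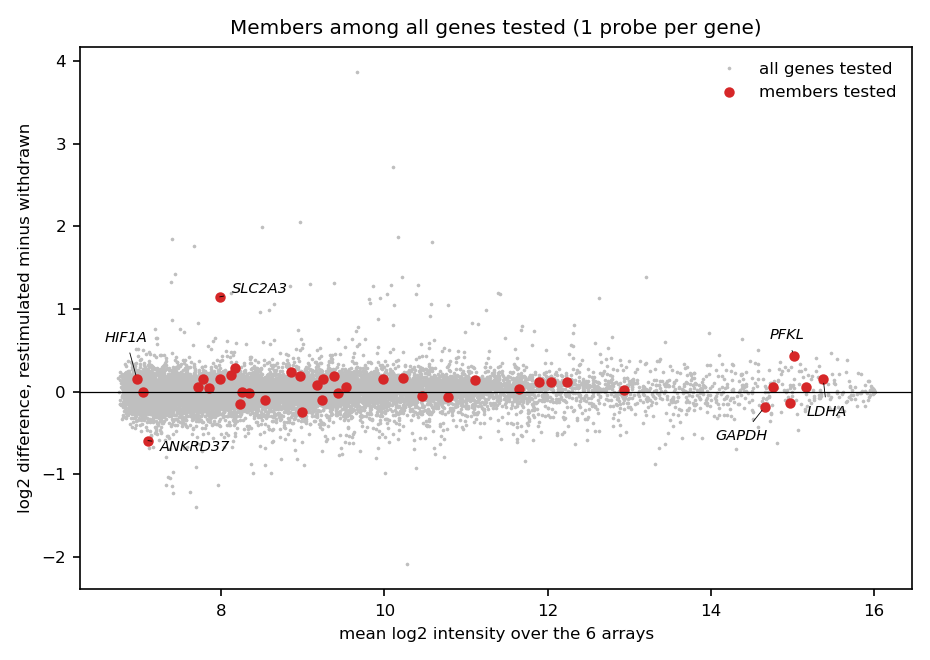
Log2 difference (y axis, restimulated minus withdrawn) against the mean log2 intensity over the 6 arrays (x axis) for all 12703 genes tested (gray) and the 39 tested genes of the set below the ceiling (red). SLC2A3 lies at 1.15, ANKRD37 at -0.59, and the other 37 between -0.25 and 0.43.

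Neighboring pathways held no called gene. Of 25 genes of gluconeogenesis, glycogen and the pentose phosphate branch 19 were tested, with a median of 0.03 and a range from -0.99 to 0.22. The lowest was PCK2, the mitochondrial form of the enzyme that makes phosphoenolpyruvate in gluconeogenesis, named here after its values were seen. It read 9.36, 9.402 and 9.76 in restimulated and 9.34, 9.58 and 12.57 in withdrawn cells, so that withdrawn replicate 3 stood apart, as for ANKRD37 and P4HA2. RPIA, an isomerase of the pentose phosphate branch, read 9.68, 9.68 and 9.69 in restimulated and 10.004, 10.16 and 9.87 in withdrawn cells, without overlap, and at -0.33 ± 0.09 (SE) it was not called (limma adjusted p = 0.448). Of 19 genes of glucose sensing, mTORC1 and AMPK 13 were tested, with differences between -0.17 for SESN2 and 0.28 for STK11. None of these lists was chosen for how it moved, but all were written with earlier results of these data known.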

How the data were processed

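Total RNA of INA6 cells was labeled with Cy3 after amplification with a random primer and hybridized to an Agilent custom array of 243504 spots, and scanned on a GenePix instrument. Quantile normalization between arrays was done by the authors, who deposited the result as log2 intensities. Of software, R (2.9.0) and limma are listed in the submitters' processing notes, and a background step is not given in the sources used. Quantile normalization removes any shift common to the whole array, and the ceiling of 16 understates differences of very bright spots. The values were used as deposited, without another normalization in the main analysis.

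Rows were assigned to probe numbers by a fixed rule on the grid of 912 by 267 spots, an inference from the data that is not stated in the files. The symbol table names 27216 probes with 1 symbol, and 4251 symbols were updated through a RefSeq gene table (GRCh38.p14). Probes above the array median on at least 3 of 6 arrays were tested, 122102 in all, because the negative control spots of the study's own filter could not be told apart by name. Genes were represented by their brightest probe and tested, two-sided, with lmFit and eBayes of limma 3.58.1 (R 4.3.3), and p-values were adjusted by Benjamini-Hochberg over 12703 genes at a threshold of 0.05. All p-values across genes or probes come from this test. The procedure was tested on simulated data with known changes, 67 genes for each size. It recovered 26.9% of log2 changes of 0.5, 79.1% of changes of 1 and 94% of changes of 2, with 6 false calls. Small changes were thus mostly missed. The simulation changed 67 genes for each size, while 31 genes in all were called in the data. With more changed genes the adjusted threshold is easier to pass, so these shares may overstate what was recovered in the data.

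The genes of the set and all lists were chosen with earlier results of these data known. Every gene of the set is accounted for. Values on each array are given for called genes, the 10 next by p, genes with wide spread, and genes at the ceiling or below the median, while some others are given by their difference. Of each further list up to 3 genes with the smallest p were eligible, and PCK2 and the markers were named outside this rule. Alternatives were the filters, the probe choice, symbols, normalization, variance prior, a replicate block, adjustment over all probes, and leaving out each array.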

Additional observations from a re-analysis of the deposited data

How the results depend on the processing

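SLC2A3 passed in 10 of 11 alternatives that used all arrays, with differences from 0.99 (mean over both probes) to 1.16 (cyclic loess). The exception was the replicate block, with the same difference of 1.15 and an adjusted p of 0.273, under which 0 genes of the set and 1 of all genes passed. Over all genes tested, same-numbered arrays did not deviate together (r = 0.0477, -0.0227 and -0.276 for replicates 1, 2 and 3), so the numbers were not taken as pairs. That check does not cover the glycolytic enzymes by themselves. Of these 15, replicate 2 was highest for 10 among the restimulated and for 11 among the withdrawn arrays. Whether same-numbered arrays belong together was not tested for them. Leaving out 1 array gave 1.06 to 1.27, with 0 to 1 genes of the set and 6 to 15 of all genes called. All genes called numbered 31 in the main analysis, 74 with an interquartile range above 0.5, 58 without ceiling probes, 78 with an intensity trend and robust prior, and 61 with p adjusted over all probes. SLC2A3 was the gene of the set called under each of these. None of the other 38 passed under any alternative (smallest adjusted p 0.391), and 18 kept their sign throughout. With the mean over probes, PDK1 (-0.033), ARNT (-0.038), EGLN1 (0.076) and VEGFA (0.056) changed sign. CA9 did so with shifted medians (-0.0081) and cyclic loess (-0.0020), and SLC2A1 with cyclic loess (0.014). Leaving out 1 array changed the sign of 18 uncalled genes, whose differences then ranged as follows: ALDOC -0.010 to 0.31, ANKRD37 -0.94 to 0.026, BNIP3L -0.085 to 0.12, CA9 -0.11 to 0.083, EGLN1 -0.080 to 0.023, ENO1 -0.032 to 0.21, GAPDH -0.33 to 0.016, GPI -0.16 to 0.089, LDHA -0.0031 to 0.42, LDHB -0.076 to 0.16, P4HA2 -0.41 to 0.062, PFKFB4 -0.16 to 0.57, PGK1 -0.027 to 0.19, PKM2 -0.12 to 0.20, SLC16A1 -0.00047 to 0.24, SLC16A3 -0.11 to 0.065, SLC2A1 -0.065 to 0.11 and VEGFA -0.15 to 0.019. The filter on the interquartile range left none of the other 38. Signal at the ceiling limits what could be measured for ALDOA, and signal near the array median for ANKRD37, HIF1A and CA9.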
